A study of Homo sapiens with 39 samples.

Results

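ASB2, FLNA, FLNC and TLN1 were the genes listed, and their members were all probe sets that the platform annotation gives to that symbol alone. ASB2 had 1 such probe set and TLN1 had 2, so 2 of the 4 listed genes entered the results, out of 18132 genes tested. No probe set with a single symbol matched FLNA or FLNC, and both filamins were not analysed here. For TLN1 the probe set with the higher mean over all 39 arrays is called the main one (mean 7.90) and the remaining one the other (mean 6.88).

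ASB2 is a SOCS-box protein that brings substrates to an E3 ubiquitin ligase built on cullin-5, with elongins B and C as adaptors and a RING protein as the catalytic partner. It was found as a gene induced by retinoic acid in acute promyelocytic leukemia cells, and the filamins, which cross-link actin filaments and bind integrin tails, are its best known substrates. TLN1 encodes talin 1, which binds the same integrin tails, switches integrins to their active form and ties them to actin. It is grouped with ASB2 here as a listed target, which mRNA levels do not test. The arrays measured mRNA only, so the loss of a protein that a ligase causes was not measured.

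The samples were 7 human acute myeloid leukemia cell lines (OCI-M1, Kasumi-1, OCI-AML3, Sig-M5, MV-4-11, KG-1a and NOMO-1) kept for 24 h with DMSO as vehicle or with tamibarotene (SY-1425), a man-made retinoid that activates the alpha form of the retinoic acid receptor. The labels give 100 nM as added and 50 nM as the final concentration. Each line had 3 tamibarotene arrays, and 3 vehicle arrays, or 2 in Sig-M5, KG-1a and Kasumi-1. Each line is a single culture model of one leukemia, and nothing says that replicates came from separate cultures, so the p-values measure the spread between these samples, which may be technical. In such bulk RNA, fewer cells with an mRNA and less of it per cell cannot be told apart.

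Values are log2 levels of a probe set, and a response is the tamibarotene mean minus the vehicle mean on that scale, with its standard error (SE) from limma. A gene was called at a limma adjusted p under 0.05 over all genes. The array medians ran from 5.01 to 5.17. The difference between the 3' and 5' beta-actin control probe sets, which is larger where RNA is more degraded, was 1.89 in Sig-M5 vehicle replicate 2, 1.18 in Kasumi-1 vehicle replicate 2 and 0.81 in Sig-M5 vehicle replicate 1, against -0.02 to 0.56 in the other 36 arrays. Of the 7 measured markers of myeloid leukemia cells, MPO ranged from 3.75 to 13.94 and PTPRC (CD45) from 4.36 to 10.05 over the arrays. In the average 2 of these 7 were called down, LYZ (-0.49 ± 0.12) and CD34 (-0.26 ± 0.07), where 12.4% of all genes were called down. In Sig-M5 2 were called up, PTPRC (1.42 ± 0.47) and CSF3R (0.67 ± 0.17), where 8.5% of all genes were called up. Elsewhere 1 was called down in Kasumi-1 (2.36% of all genes) and 1 in KG-1a (1.88%), and 1 was called up in OCI-AML3 (5.5%). The part of these markers in the results was not tested. Of 11 muscle and fibroblast markers, 10 stayed at or below 6.57 on every array and ACTA2 reached 9.26, and none of the 11 was called in the average response. In single lines 1 was called down in KG-1a (1.88% of all genes), 1 up in OCI-AML3 (5.5%) and 2 down in Sig-M5 (18.4%). Of 7 megakaryocyte and platelet markers, ITGA2B reached 10.52 and 1 was called down in the average. Among the lines 1 was called down in NOMO-1 (0.711% of all genes) and 1 in OCI-AML3 (6.36%).

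The annotation of ASB2 in RefSeq holds 2 transcription starts, 19.5 kb apart, and the positions of the array's probes were not given, so the transcript that the ASB2 probe set reads is not known. The 250 bases before each start are shown because the drug's receptor acts on DNA, and the capitals mark the only match among the motifs searched (GRCh38.p14, minus strand, 5' to 3').

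ASB2 upstream start, chr14:93976571-93976820: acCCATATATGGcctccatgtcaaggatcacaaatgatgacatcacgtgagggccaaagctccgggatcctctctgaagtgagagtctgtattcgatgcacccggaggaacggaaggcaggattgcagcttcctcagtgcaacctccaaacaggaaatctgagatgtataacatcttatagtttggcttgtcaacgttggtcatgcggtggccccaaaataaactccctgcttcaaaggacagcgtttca

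ASB2 downstream start, chr14:93957048-93957297: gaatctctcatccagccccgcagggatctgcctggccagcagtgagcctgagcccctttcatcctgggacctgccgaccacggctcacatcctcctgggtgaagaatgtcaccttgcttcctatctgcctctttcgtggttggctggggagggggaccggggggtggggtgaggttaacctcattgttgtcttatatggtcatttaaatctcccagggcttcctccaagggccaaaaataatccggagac

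The motifs searched on both strands were the receptor hexamers AGGTCA (in 12.1% of all windows), GGGTCA (12.1%), AGTTCA (8.8%) and GGTTCA (7.16%), direct repeats of them with spacers of 1, 2 or 5 bases (0.0968%, 0.0313% and 0.074%), and the CArG box, the site of serum response factor. The 10 capital letters are a CArG box, 238 bases before the upstream start. Windows of the same length hold a CArG box in 1.16% of the 35116 starts in the table and at least 1 of the hexamers in 33.8%. No hexamer was found in either ASB2 window or in the window before the TLN1 start, which says only that these letters are not within 250 bases. The windows also differ in base composition, with 48.8% and 56.8% G and C before the ASB2 starts and 70.8% before the TLN1 start.

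ASB2 rose in 5 of the 7 lines, by between 1.83-fold in OCI-AML3 and 3.81-fold in NOMO-1. It was not called in Kasumi-1 or OCI-M1, and it fell in none. Of all genes, 0.259% were called up in 5 or more lines. In Kasumi-1 0.48% of all genes were called up and 2.36% down, and in OCI-M1 0.7% and 0.386%. The rises were called in lines whose vehicle level of ASB2 was the highest as well as in lines where it was low. The lines without a call, Kasumi-1 and OCI-M1, had the lowest vehicle means (4.64 and 4.96). A link between vehicle level and response was not tested.

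**Figure D1:**
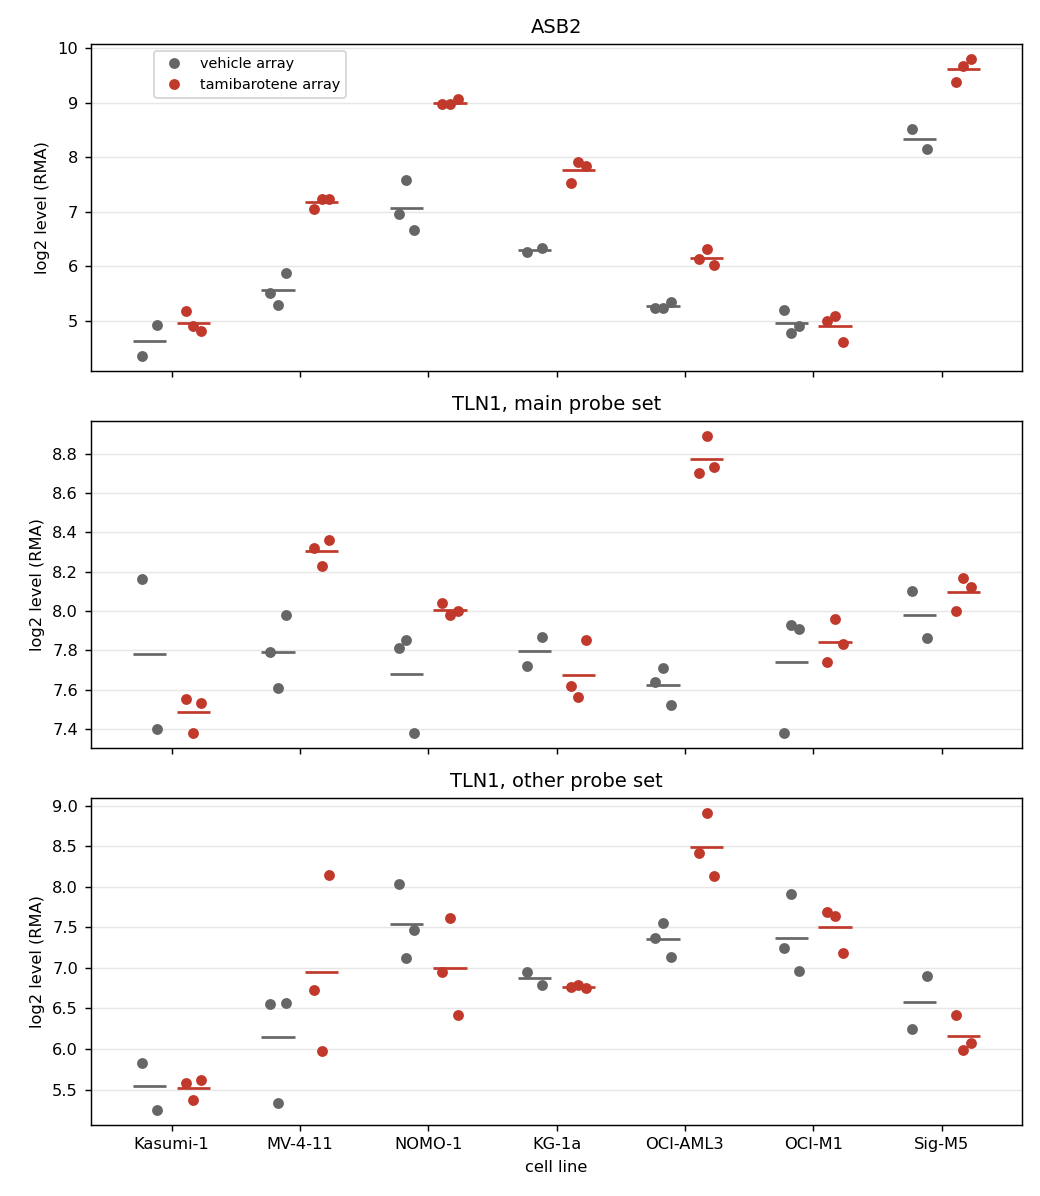
Log2 level of each array (points) and group mean (bars) for ASB2 and for both TLN1 probe sets, by cell line, with vehicle in grey and tamibarotene in red; the vertical scales differ between panels. All tamibarotene arrays lie above all vehicle arrays for ASB2 in 5 lines, and for the main TLN1 probe set in MV-4-11, NOMO-1 and OCI-AML3. In these lines the same holds for 9.32% (MV-4-11) to 16% (KG-1a and Sig-M5) of all genes.

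In vehicle arrays the ASB2 level was 8.51 and 8.14 in Sig-M5, the highest of the lines, followed by 6.95, 7.59 and 6.67 in NOMO-1 and by 6.26 and 6.34 in KG-1a. It was 5.51, 5.29 and 5.88 in MV-4-11 and 5.24, 5.24 and 5.35 in OCI-AML3. The lowest levels were 5.20, 4.78 and 4.91 in OCI-M1 and 4.36 and 4.92 in Kasumi-1. The arrays of Sig-M5, NOMO-1 and KG-1a each overlapped with no other line, while MV-4-11 overlapped with OCI-AML3 and OCI-M1 with Kasumi-1.

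The vehicle means of ASB2 spanned 4.64 to 8.33, and the lines differed by limma's F test (F = 78, adjusted p = 7.46e-16), as did 78.6% of all genes. The Sig-M5 mean exceeded that of NOMO-1 by 1.26 ± 0.20 (adjusted p = 5.02e-06), NOMO-1 exceeded KG-1a by 0.77 ± 0.20 (adjusted p = 0.00233) and KG-1a exceeded MV-4-11 by 0.74 ± 0.20 (adjusted p = 0.00447). The neighbours below them were not called different. MV-4-11 and OCI-AML3 differed by 0.28 ± 0.18 (adjusted p = 0.275), OCI-AML3 and OCI-M1 by 0.31 ± 0.18 (adjusted p = 0.181) and OCI-M1 and Kasumi-1 by 0.33 ± 0.20 (adjusted p = 0.221). Of the 21 pairs of lines, 18 were called, and over the pairs together 43.4% of all gene tests were called. The highest and lowest lines include the arrays with high actin differences, both of Sig-M5 and replicate 2 of Kasumi-1. That Kasumi-1 array read 4.36, and the other, at 4.92, lay within the OCI-M1 arrays. No vehicle comparison of ASB2 or TLN1 was run with the actin covariate.

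In NOMO-1 the tamibarotene arrays read 8.97, 8.97 and 9.06, all above the vehicle arrays, as for 11.1% of all genes there. ASB2 rose there by 1.93 ± 0.18 (3.81-fold, adjusted p = 7.67e-09), the 21st largest of the 18132 responses in that line, where 2.77% of all genes were called up and 0.711% down. The tamibarotene arrays lay closer together (SD 0.05) than the vehicle arrays (SD 0.47), in which replicate 2 stood highest.

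In MV-4-11 the tamibarotene arrays read 7.05, 7.24 and 7.23, and all exceeded the highest vehicle array, as for 9.32% of all genes. The rise was 1.61 ± 0.18 (3.06-fold, adjusted p = 6.87e-08), at rank 101 of the line's responses, with 4.32% of genes called up and 3.4% down. In KG-1a the tamibarotene arrays read 7.53, 7.91 and 7.83, again above both vehicle arrays, as for 16% of genes. ASB2 rose in KG-1a by 1.46 ± 0.20 (2.75-fold, adjusted p = 1.32e-05), at rank 29, with 1.21% of genes called up and 1.88% down.

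In OCI-AML3 the tamibarotene arrays read 6.13, 6.31 and 6.02, close to the vehicle arrays of KG-1a and below every tamibarotene array of the other 4 lines with a rise. They lay above the OCI-AML3 vehicle arrays, as for 12.9% of all genes. The rise in OCI-AML3 was 0.88 ± 0.18 (1.83-fold, adjusted p = 0.000845), at rank 336, with 5.5% of genes called up and 6.36% down.

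In Sig-M5 the tamibarotene arrays read 9.38, 9.67 and 9.80, the highest ASB2 levels of the series and above both vehicle arrays, as for 16% of genes. The rise was 1.29 ± 0.20 (2.45-fold, adjusted p = 1.49e-05), at rank 226, with 8.5% of genes called up and 18.4% down. The Sig-M5 vehicle arrays are those with the high actin differences. With the actin difference as a covariate the rise was 0.84 ± 0.28 and no longer called (adjusted p = 0.0531), and without vehicle replicate 2 it was 1.11 (adjusted p = 0.00303).

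In Kasumi-1 the tamibarotene arrays read 5.19, 4.90 and 4.82 and overlapped the vehicle arrays, giving a response of 0.33 ± 0.20 (adjusted p = 0.402). It was 0.06 without vehicle replicate 2, the array with the high actin difference, and 0.61 without vehicle replicate 3, and it was called in neither case. In OCI-M1 the tamibarotene arrays read 4.99, 5.09 and 4.62 and overlapped the vehicle arrays, giving -0.06 ± 0.18 (adjusted p = 0.999). Kasumi-1 and OCI-M1 had the lowest vehicle levels, and RMA values carry no detection call, so a low level is not a statement that the mRNA was absent.

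The responses of ASB2 differed between the lines (limma F = 14.7 with 6 degrees of freedom, adjusted p = 3.51e-06), as did those of 27.4% of all genes. Of the 21 pairs of lines, 10 were called, and over the pairs together 7.87% of all gene tests were called. All 5 lines with a rise exceeded OCI-M1, by 0.94 ± 0.26 in OCI-AML3 (adjusted p = 0.0206) to 1.99 ± 0.26 in NOMO-1 (adjusted p = 7.43e-06). Against Kasumi-1, NOMO-1, MV-4-11, KG-1a and Sig-M5 were higher, and OCI-AML3 was not called (0.54 ± 0.27, adjusted p = 0.269). NOMO-1 also exceeded OCI-AML3 by 1.05 ± 0.26 (adjusted p = 0.0117). No neighbours in the order of responses were called different, and of the pairs among NOMO-1, MV-4-11, KG-1a and Sig-M5 none was called (differences of 0.15 to 0.64).

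Set against the mean of the other 6 responses, ASB2 stood higher in NOMO-1 (2.61% of all genes called) and lower in OCI-M1 (3.5%) and Kasumi-1 (5.36%). TLN1 stood higher in OCI-AML3 (7.83%) and lower in Kasumi-1. The Kasumi-1 difference of TLN1, -0.64, rested on vehicle replicate 2: it was -0.26 without that array (adjusted p = 0.538) and -0.52 with the actin covariate (adjusted p = 0.0885). That of ASB2, -0.85, was -1.13 without vehicle replicate 2 (adjusted p = 0.0178) and -0.57 without vehicle replicate 3 (adjusted p = 0.184).

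**Figure D2:**
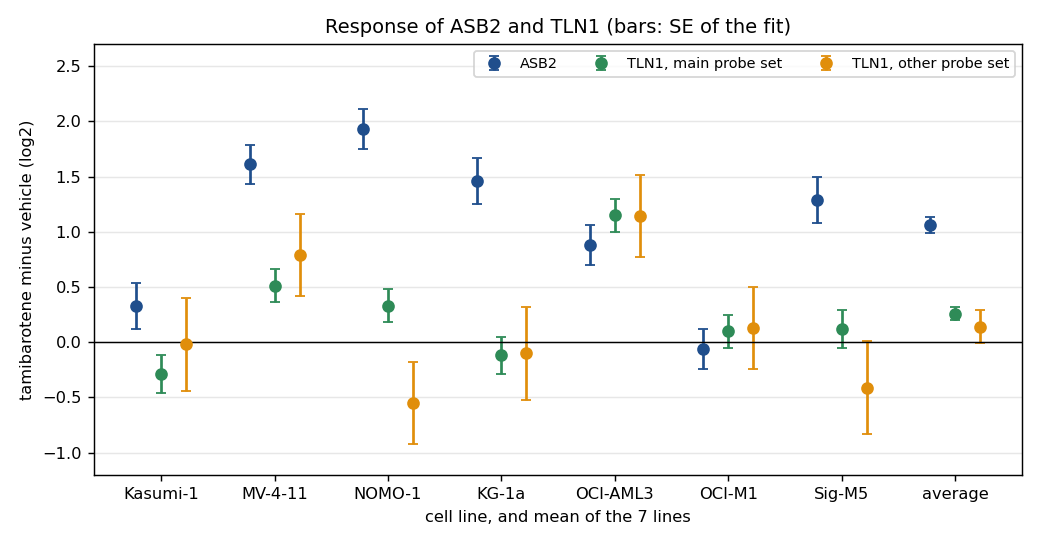
Response (tamibarotene minus vehicle, log2) of ASB2 and of both TLN1 probe sets in each line and in the mean of the 7 lines; points are estimates and bars the SE of a limma fit over all probe sets. ASB2 lies between 0.88 and 1.93 in 5 lines, and the TLN1 probe sets lie near 1.15 together in OCI-AML3 and on opposite sides of 0 in NOMO-1 and Sig-M5.

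Averaged over the lines, ASB2 rose by 1.06 ± 0.07 (2.09-fold, adjusted p = 9.82e-13), with a positive response in 6 of 7 lines, as for 6.15% of all genes. In the average 6.71% of all genes were called up and 12.4% down. This SE leaves out the spread between lines, which was 0.72 (SD, n = 7). With the 7 responses themselves as replicates the mean was the same, the unadjusted limma p was 0.00105 and the adjusted p was 0.454. In that test limma called none of the 18132 genes, while 1760 had an unadjusted p under 0.05.

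By the main probe set TLN1 rose in OCI-AML3 and MV-4-11, and by the other probe set it was called in no line. Its vehicle means by the main probe set lay within 0.36 of each other, while by the other probe set they spread more widely and in another order.

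By the main probe set the vehicle means of TLN1 lay between 7.62 in OCI-AML3 and 7.98 in Sig-M5. Neighbours in the order, which ran Sig-M5, KG-1a, MV-4-11, Kasumi-1, OCI-M1, NOMO-1 and OCI-AML3, differed by 0.01 to 0.18. The F test did not call the lines different (F = 0.895, adjusted p = 0.535), and limma called 0 of the 21 pairs, with 1 pair at an unadjusted p under 0.05. By the other probe set the vehicle means ran from 5.54 in Kasumi-1 to 7.54 in NOMO-1, and the lines differed (F = 6.37, adjusted p = 0.000376). The residual SD between replicates was 0.49 for the other probe set and 0.19 for the main one.

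In OCI-AML3 the vehicle arrays of the main TLN1 probe set read 7.64, 7.71 and 7.52 and the tamibarotene arrays 8.70, 8.89 and 8.73. All tamibarotene arrays lay about 1 unit above the vehicle arrays. Of all genes in this line, 12.9% had all tamibarotene arrays above all vehicle arrays. TLN1 rose there by 1.15 ± 0.15 (2.22-fold, adjusted p = 7.67e-07), at rank 205 of the line's responses. By the other probe set the vehicle arrays read 7.37, 7.55 and 7.14 and the tamibarotene arrays 8.42, 8.91 and 8.13, again without overlap, a response of 1.14 ± 0.37 that was not called among all probe sets (adjusted p = 0.0547), of which 9.05% were called in this line, 6.08% in MV-4-11, 2.95% in NOMO-1, 26.6% in Sig-M5 and 17% in the average.

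In MV-4-11 the main TLN1 probe set read 7.79, 7.61 and 7.98 in vehicle and 8.32, 8.23 and 8.36 in tamibarotene arrays. The groups did not overlap, with tamibarotene higher, as for 9.32% of all genes there. The rise was 0.51 ± 0.15 (1.43-fold, adjusted p = 0.0267). The call was lost without tamibarotene replicate 1 (adjusted p = 0.0854) or 3 (0.0941) or vehicle replicate 1 (0.077) or 2 (0.148), and when the line was fitted alone (0.0523). By the other probe set the vehicle arrays read 6.55, 5.34 and 6.57 and the tamibarotene arrays 6.73, 5.98 and 8.14, which overlap, and the response of 0.79 ± 0.37 was not called (adjusted p = 0.326).

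In NOMO-1 the main TLN1 probe set read 7.81, 7.85 and 7.38 in vehicle and 8.04, 7.98 and 8.0 in tamibarotene arrays. The groups did not overlap, with tamibarotene higher, as for 11.1% of all genes there. The response of 0.33 ± 0.15 was not called (adjusted p = 0.304). The other probe set gave -0.55 ± 0.37 (adjusted p = 0.585).

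The remaining lines had no called TLN1 response, and their groups overlapped by the main probe set. In Sig-M5 the vehicle arrays read 8.10 and 7.86 and the tamibarotene arrays 8.0, 8.17 and 8.12, a response of 0.12 ± 0.17 (adjusted p = 0.668), against -0.41 ± 0.42 by the other probe set. In OCI-M1 the vehicle arrays read 7.38, 7.93 and 7.91 and the tamibarotene arrays 7.74, 7.96 and 7.83, a response of 0.10 ± 0.15 (adjusted p = 0.999). In KG-1a the vehicle arrays read 7.72 and 7.87 and the tamibarotene arrays 7.62, 7.56 and 7.85, a response of -0.12 ± 0.17 (adjusted p = 0.897). In OCI-M1 vehicle replicate 1 was the lowest array and the other vehicle arrays lay among the tamibarotene arrays.

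In Kasumi-1 the TLN1 vehicle arrays read 8.16 and 7.40, with the higher value in replicate 2, the array with the actin difference of 1.18, and the tamibarotene arrays read 7.55, 7.38 and 7.53. The response of -0.29 ± 0.17 (adjusted p = 0.363) became 0.09 without vehicle replicate 2 (adjusted p = 0.926) and -0.67 without vehicle replicate 3 (adjusted p = 0.0159). The part of RNA integrity in this response was not tested beyond these values and the actin covariate, under which it was -0.10.

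The responses of TLN1 by the main probe set differed between the lines (F = 9.41, adjusted p = 0.00014), as did those of 27.4% of all genes. By the other probe set they were not called different (F = 2.60, adjusted p = 0.107). OCI-AML3 exceeded NOMO-1, OCI-M1, Sig-M5, KG-1a and Kasumi-1, by 0.82 ± 0.21 (adjusted p = 0.017) to 1.44 ± 0.22 (adjusted p = 3.72e-05), and was not called against MV-4-11 (0.64 ± 0.21, adjusted p = 0.0948). MV-4-11 exceeded Kasumi-1 by 0.80 ± 0.22 (adjusted p = 0.026), the last of 6 called pairs of 21, where 7.87% of all gene tests were called. Both pairs with Kasumi-1 include its response of -0.29, which was 0.09 without vehicle replicate 2. Averaged over the lines TLN1 rose by 0.26 ± 0.06 (1.20-fold, adjusted p = 0.00172), where 6.71% of all genes were called up. Its response was positive in 5 of 7 lines, and the share of all genes with as many was not computed. Without OCI-AML3 the average was 0.11 (adjusted p = 0.357), and by the other probe set it was 0.14 ± 0.15 (adjusted p = 0.611).

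The largest responses of ASB2 and of TLN1 by the main probe set were in different lines. NOMO-1 had the largest ASB2 response and a TLN1 response of 0.33, while OCI-AML3 had the largest TLN1 response and the smallest called ASB2 rise. These lines were called different from each other for both genes. MV-4-11 came next for both (1.61 and 0.51). Limma did not call it different from NOMO-1 for ASB2 (adjusted p = 0.711) or from OCI-AML3 for TLN1 (adjusted p = 0.0948). Among the lines with an ASB2 rise, OCI-AML3 was called different from NOMO-1 only. Over the 7 lines the responses had a Pearson r of 0.208, given as a description, since both genes were read on the same arrays.

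Of 9 listed partners of ASB2 in the ligase, 8 were measured, and in the average 1 rose and 2 fell, with a median of -0.02, equal to that of all genes, of which 19.1% were called either way. The cullin scaffold CUL5 was at 0.14 ± 0.20 (adjusted p = 0.74) and its RING partner RNF7 at 0.07 ± 0.04 (adjusted p = 0.202). The elongins, which tie SOCS-box proteins to the cullin, were at -0.16 ± 0.03 for ELOB (adjusted p = 0.000161) and -0.01 ± 0.04 for ELOC (adjusted p = 0.876). ARIH2, a ubiquitin ligase that works together with cullin-5 complexes, rose by 0.27 ± 0.03 (1.20-fold, adjusted p = 4.53e-09), with the largest rises in KG-1a (0.53) and MV-4-11 (0.51). UBE2F, which attaches NEDD8 to cullin-5, fell by 0.15 ± 0.03 (adjusted p = 0.00153). In 6 of the lines 0 or 1 of the 8 was called, and in Sig-M5 3 were, where 26.9% of all genes were called.

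Of 17 other genes of the ASB family, 16 were measured, and in the average 6.71% of all genes rose and 12.4% fell. ASB1 rose by 0.32 ± 0.05 (1.25-fold, adjusted p = 2.69e-05) and ASB9 fell by 0.22 ± 0.07 (adjusted p = 0.023). Among the single lines ASB9 was called in Sig-M5 only (-0.58 ± 0.20). There it was -0.22 ± 0.27 with the actin covariate (adjusted p = 0.737) and -0.22 without vehicle replicate 2. ASB1 was called in KG-1a only among the single lines, at 1.18 ± 0.15 (2.27-fold, adjusted p = 1.84e-06), and its responses differed between lines (adjusted p = 0.000471). ASB2 and ASB1 were thus the family members called up in the average, among those measured.

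Besides the filamins, 5 reported substrates of ASB2 were measured, of which TCF3 and DES fell in the average and none rose. Of all genes, 12.4% fell and 6.71% rose in the average. With the actin covariate 1 of the 5 was called in the average, along with 2306 of all 18132 genes. DES, which encodes the muscle filament protein desmin, was at -0.18 ± 0.05 (adjusted p = 0.00762) and was called in no single line. TCF3, the E2A transcription factor of early lymphoid cells, fell by 0.62 ± 0.11 in Sig-M5 (adjusted p = 3.59e-05), 0.52 ± 0.09 in MV-4-11 (adjusted p = 0.000164) and 0.33 ± 0.09 in OCI-AML3 (adjusted p = 0.0151), and its average response was -0.25 ± 0.04 (adjusted p = 6.98e-06). In NOMO-1, where ASB2 rose most, TCF3 was at -0.06 ± 0.09. KMT2A, the histone methyltransferase MLL, was at 0.01 ± 0.07 in the average and fell in Sig-M5 alone among the calls (-0.59 ± 0.19, adjusted p = 0.0206). In Sig-M5 4 of the 5 were called, 1 up and 3 down, with 26.9% of all genes (8.5% up and 18.4% down). JAK2 rose there (0.62 ± 0.20, adjusted p = 0.0174), and JAK3 (-0.76 ± 0.23, adjusted p = 0.0128), TCF3 and KMT2A fell. With the actin covariate 0 of the 5 were called (9.4% of all genes), and TCF3 was at -0.34 (adjusted p = 0.118). Without vehicle replicate 2, 1 of the 5 was called (14.9% of all genes), which was TCF3 (-0.47, adjusted p = 0.0098).

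**Figure D3:**
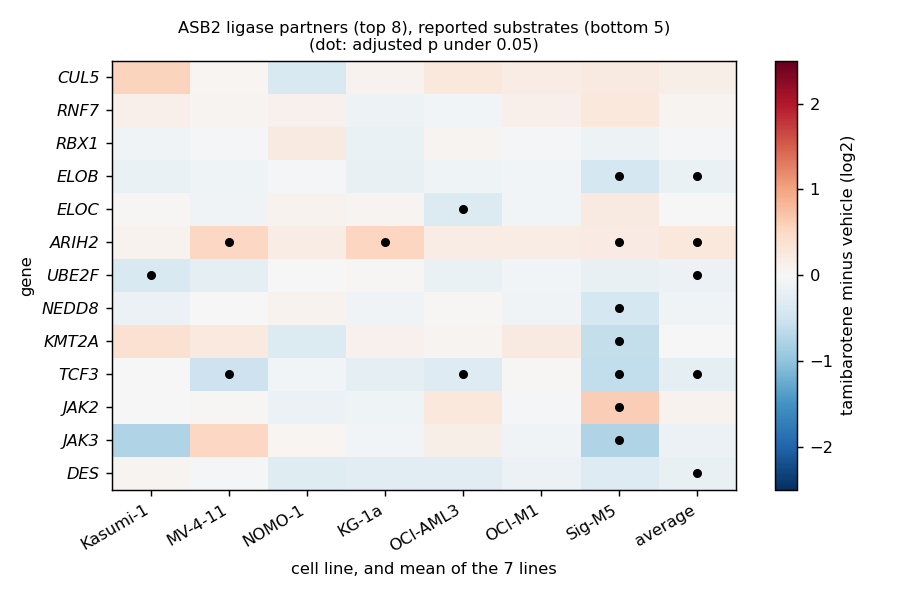
Responses (tamibarotene minus vehicle, log2, colour) of the 8 measured ligase partners of ASB2 and the 5 measured other reported substrates, in each line and in the mean of the 7 lines; a dot marks a limma adjusted p under 0.05. ARIH2 is called up in 3 lines and TCF3 down in 3, and CUL5, RNF7 and RBX1 carry no dot.

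Among 11 listed partners of filamins, 10 were measured, and in the average 2 rose and 1 fell, where 6.71% of all genes rose and 12.4% fell. ITGB7 and ITGB2, integrin beta subunits whose tails bind filamin and talin, rose by 0.82 ± 0.09 (adjusted p = 1.39e-08) and 0.34 ± 0.04 (adjusted p = 3.11e-07). ITGB7 rose most in OCI-AML3 (2.13 ± 0.22, 4.36-fold), the line in which TLN1 rose most. RFLNB, refilin B, which binds filamins, fell by 0.51 ± 0.04 (adjusted p = 2.17e-10), with calls in Sig-M5 (-1.30), OCI-M1 (-0.93) and MV-4-11 (-0.36).

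Of 22 genes around talin and integrin activation, 4 rose and 3 fell in the average, against 6.71% up and 12.4% down among all genes, with a median of 0.02 against -0.02. In OCI-AML3 5 rose and 2 fell, against 5.5% up and 6.36% down among all genes, with a median of 0.07 against -0.03. PXN, paxillin, an adaptor of focal adhesions, rose there by 2.47 ± 0.13 (5.55-fold, adjusted p = 4.33e-15), and APBB1IP (RIAM), which carries talin to the membrane with the GTPase RAP1, by 2.23 ± 0.11 (4.69-fold, adjusted p = 7.88e-16). The talin-binding KANK2 rose by 0.57 ± 0.09, vinculin, VCL, by 0.46 ± 0.11 and LPXN, leupaxin, a relative of paxillin in blood cells, by 0.42 ± 0.08. FERMT1, kindlin-1, which activates integrins together with talin, fell in OCI-AML3 by 1.10 ± 0.15, and ITGB1BP1, which competes with talin for the beta 1 tail, fell by 0.50 ± 0.08. TLN2, the second talin gene, was called in no line and was at 0.03 ± 0.04 in the average (adjusted p = 0.68).

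The same list had a different makeup in other lines. In MV-4-11 PXN rose by 1.42 ± 0.13 (2.68-fold, adjusted p = 1.19e-09) and FERMT1 fell by 1.67 ± 0.15 (adjusted p = 3.22e-10). LPXN fell in KG-1a by 0.99 ± 0.09 (adjusted p = 1.16e-09) and in MV-4-11 by 0.62 ± 0.08 (adjusted p = 3.27e-07). RAP1B rose in KG-1a (1.27 ± 0.22, adjusted p = 0.00024) and RAP1A in Sig-M5 (1.75 ± 0.20, adjusted p = 1.08e-07). In NOMO-1 limma called 0 of the 22, with 4 at an unadjusted p under 0.05. In Sig-M5 11 were called, with 26.9% of all genes. With the actin covariate 4 were called, with 9.4% of all genes, and without vehicle replicate 2 6 were, with 14.9%.

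**Figure D4:**
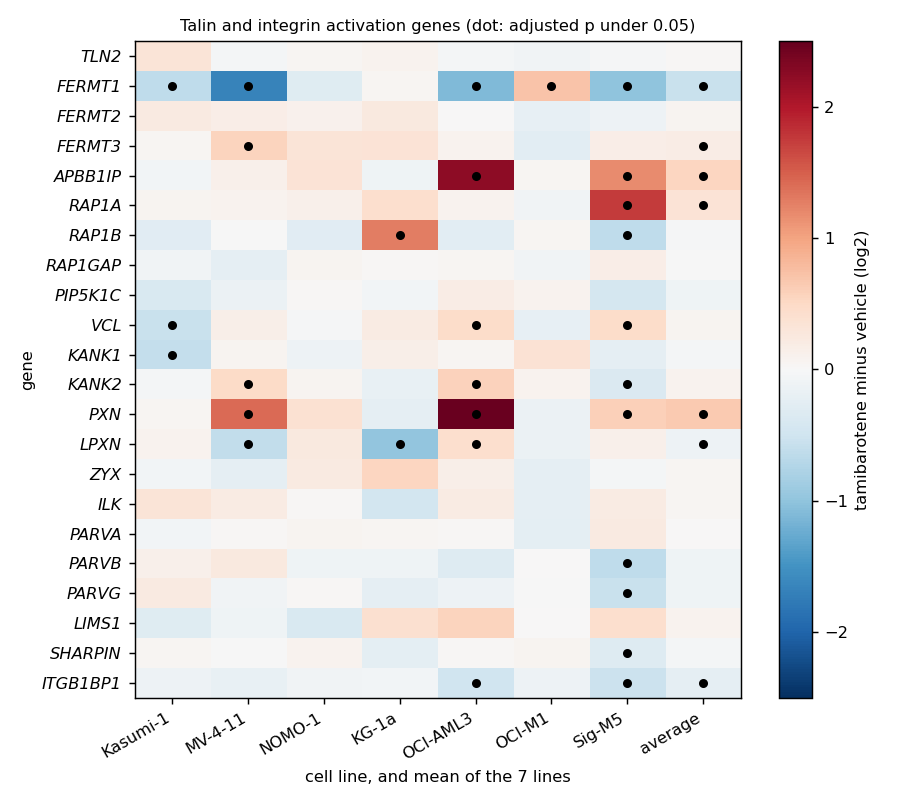
Responses (tamibarotene minus vehicle, log2, colour) of the 22 genes around talin and integrin activation in each line and in the mean of the 7 lines; a dot marks a limma adjusted p under 0.05. PXN and APBB1IP are the strongest rises, at 2.47 and 2.23 in OCI-AML3, and FERMT1 is called down in 4 lines and up in OCI-M1; its call in Kasumi-1 (-0.63) is lost without vehicle replicate 2 (-0.46).

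Of 14 actin cross-linkers and related genes, 1 rose and 4 fell in the average, against 6.71% up and 12.4% down among all genes. VASP, which promotes actin filament growth, rose by 0.34 ± 0.06 (adjusted p = 9.89e-05), and the bundling protein fascin, FSCN1, fell by 0.43 ± 0.08 (adjusted p = 0.000294). LCP1, SPTAN1 and SPTBN1 were each called down in Kasumi-1 (-0.88, -0.77 and -0.75), where 2.84% of all genes were called. The calls of that line depended on single arrays. They fell to 36 of all genes without tamibarotene replicate 2, whose actin difference was 0.21. They also depended on vehicle replicate 2, the array with the actin difference of 1.18. Without it 15 of all genes were called in place of 515, and none of the 8 genes of the lists that were called in Kasumi-1, with LCP1 at -0.87 (adjusted p = 0.0823) and SPTAN1 at -0.39 (adjusted p = 0.509). With the actin covariate 28 genes were called, LCP1 among them (-0.87, adjusted p = 0.0338). Without Kasumi-1 and Sig-M5, 2 of the 14 were called in the average.

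The genes with levels most like those of ASB2 over the 14 groups of line and arm were C8orf44 (Pearson r = 0.898), LILRA3 (0.893), ZNF782 (0.875), HLA-DOB (0.873) and ANKRD55 (0.873). Their average responses were 0.09 to 0.30, and limma called none of them in any single line. Those most like TLN1 by the main probe set were SMOX, spermine oxidase (0.865), RHBDL3 (0.861), PLIN5 (0.841), SGSM2 (0.84) and ST6GALNAC5 (0.838). SMOX was called up in 4 lines and RHBDL3 in 3. These correlations describe 14 means that share arrays and normalization, and no test was made of them.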

How the data were processed

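The data are the probe set values of 39 Affymetrix PrimeView arrays. The deposited values are on the log2 scale and, per the submitters' processing notes, the authors made them with RMA and affy (versions not given in the sources used here). Whether all arrays were normalized jointly is likewise not given, and no further normalization was applied. Values ran from 1.68 to 14.43. Of 49395 probe sets, 44988 carry a single symbol in the platform annotation. Each of 18132 genes was read by the probe set that had the highest average level.

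A linear model of 14 group means (25 residual degrees of freedom) was fitted with limma 3.58.1 (lmFit and eBayes) in R 4.3.3, and Benjamini-Hochberg adjustment ran over all genes within each contrast. The fit was tested on simulated data. The average weights the 7 lines equally. Promoter windows are those of RefSeq (GRCh38.p14), searched with Python 3.11.15. The highest correlation between arrays of a group was 0.9976. The number of arrays limits the precision.

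The members, the 6 gene lists and 3 marker lists were chosen with earlier results of these data known. The genes named are the members, KMT2A, CUL5, RNF7, ELOB, ELOC, up to 4 called genes per list and contrast with the smallest adjusted p, and the 5 genes most correlated with each member. TLN2, RBX1, DES and the markers fall outside this rule where not called and were named after their values were seen. FLNA, FLNC, UBE2M, ASB3, RFLNA and CD33 were not analysed here.

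Replicate numbers are shared between arms. Same-numbered arrays deviated together with a correlation above 0.1 in every pair only in OCI-M1 (0.118 to 0.371). Single pairs reached higher values in MV-4-11 (0.0995 to 0.67), NOMO-1 (0.0105 to 0.572) and OCI-AML3 (-0.0425 to 0.461). In Kasumi-1, KG-1a and Sig-M5 no pair exceeded 0.117. These are hints from the values, since the labels state no pairing. Alternatives were other probe sets, array medians, array weights, the actin covariate, a filter on the dimmest 25% of genes, the replicate block, single-line fits, and left-out arrays and lines.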

Additional observations from a re-analysis of the deposited data

Results flagged for a closer look

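The ASB2 responses differed between the lines by limma's F test (adjusted p = 3.51e-06), as did those of 27.4% of all genes. Compared with the other 6 lines averaged, ASB2 responded more in NOMO-1, by 1.01 ± 0.20 (adjusted p = 0.00236, with 2.61% of all genes called), and less in OCI-M1, by -1.31 ± 0.20 (adjusted p = 6.26e-05, 3.50% called). It also responded less in Kasumi-1, by -0.85 ± 0.22 (adjusted p = 0.0191, 5.36% called), with values of -1.13 to -0.57 when single Kasumi-1 arrays were left out. The call was lost without vehicle replicate 3 (-0.57, adjusted p = 0.184) or tamibarotene replicate 2 (adjusted p = 0.0744) or 3 (adjusted p = 0.057).

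The TLN1 responses by the main probe set differed as well by that F test (adjusted p = 0.00014, 27.4% of all genes called). TLN1 responded more in OCI-AML3 than in the mean of the others, by 1.04 ± 0.16 (adjusted p = 3.46e-05, 7.83% called), and less in Kasumi-1, by -0.64 ± 0.18 (adjusted p = 0.0305), where vehicle replicate 2 read 8.16 and vehicle replicate 3 read 7.40. Without vehicle replicate 2 this difference was -0.26 (adjusted p = 0.538), and the Kasumi-1 response itself went from -0.29 to 0.09. It was also not called without tamibarotene replicate 2 (-0.59, adjusted p = 0.128) or with the actin covariate (-0.52, adjusted p = 0.0885). No group had 4 arrays, so single arrays were not tested for standing apart.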

How the results depend on the processing

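The ASB2 calls in MV-4-11, NOMO-1, KG-1a and OCI-AML3 held under every alternative run, with single arrays left out giving 1.48 to 1.77, 1.73 to 2.19, 1.38 to 1.57 and 0.80 to 0.94. ASB2 in Sig-M5 was 0.84 with the actin covariate (adjusted p = 0.0531) and 1.11 to 1.47 without single arrays. ASB2 in OCI-M1, not called in any setting, was 0.07 with array weights and -0.16 to 0.08 without single arrays. With the lines as replicates the averages of 1.06 for ASB2 and 0.26 for TLN1 were not called (adjusted p = 0.454 and 0.615). For TLN1, the mean of both probe sets gave 0.65 in MV-4-11 (adjusted p = 0.0656), -0.11 in NOMO-1, -0.15 in Sig-M5, 0.20 in the average (adjusted p = 0.122) and a vehicle F of 3.96 (adjusted p = 0.00705). The other probe set gave 0.79, -0.55, -0.41 and 0.14 in the same order, 1.14 in OCI-AML3, a vehicle F of 6.37 and a response F of 2.60 (the F tests of that probe set were chosen after seeing the data). TLN1 in MV-4-11 was 0.49 with array medians subtracted (adjusted p = 0.0505) and 0.51 with the line fitted alone. Without OCI-AML3 the TLN1 average was 0.11. Without single arrays TLN1 was 0.42 to 0.61 in MV-4-11, -0.67 to 0.09 in Kasumi-1, -0.08 to 0.20 in OCI-M1 and 0 to 0.24 in Sig-M5. Except where an alternative used fewer arrays or another probe set, the cause was not tested.

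With the replicate block no call of ASB2 or TLN1 changed (ASB2 average 1.03 ± 0.08, TLN1 in MV-4-11 0.51, adjusted p = 0.0297). Over all genes, calls ran from 0 with the line fitted alone to 1934 with the replicate block in Kasumi-1 (515 as reported, 15 without vehicle replicate 2, 1834 without vehicle replicate 3 and 28 with the actin covariate), 904 to 3252 in MV-4-11 (1399), 202 to 1002 in NOMO-1 (631), 260 to 2587 in KG-1a (560), 1705 to 5639 in OCI-AML3 (2150), 63 to 414 in OCI-M1 (197), 1705 to 5439 in Sig-M5 (4874) and 0 to 4007 in the average (3460). With array medians subtracted, Kasumi-1 had 47 up and 885 down, against 87 and 428. In the average, called genes with the actin covariate were 1 of the other ASB genes, 1 of the other substrates and 3 of the actin cross-linkers, and without Kasumi-1 and Sig-M5 they were 1 of the other ASB genes and 2 of the actin cross-linkers. In Sig-M5, with the actin covariate and without vehicle replicate 2 (both chosen after seeing the data), the called genes were 0 and 0 of the other ASB genes, 0 and 1 of the substrates, 2 and 2 of the filamin partners, 4 and 6 of the talin list and 3 and 2 of the actin cross-linkers. The differences of NOMO-1 and OCI-M1 (ASB2) and of OCI-AML3 (TLN1) from the other lines kept their calls with the actin covariate and without any single array of that line, alternatives chosen after seeing the data. A line left with 1 vehicle array was assumed to vary like the other groups. No array carried a detection call, which limits what low levels show.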
